A study of Mus musculus with 14 samples.

Results

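A set of 10 genes of de novo lipogenesis was followed in epididymal white adipose tissue (eWAT): Acly, Me1, Acaca, Acacb, Fasn, Elovl6, Scd1, Srebf1, Mlxipl and Thrsp. They were taken by symbol from the deposited count table, and each of the 10 symbols matched 1 of its 23282 genes. The RNA came from wild-type male C57BL/6J mice that were obtained at 4 weeks of age, and the WD was begun at 5 weeks. Libraries were made with the QuantSeq kit, which reads the 3' end of messenger RNA, so that a count stands for a transcript and does not grow with its length. The control diet was fed for 20 weeks in 9 mice, 4 labelled batch 1 (replicates 1 to 4) and 5 labelled batch 2 (replicates 5 to 9). The Western diet (WD, D12079B) was fed for 20 weeks in 5 mice, which were all labelled batch 1 (replicates 1 to 5). What a batch shares is not given in the sources used here. Diet is therefore compared within a batch only in batch 1, and WD against the batch 2 controls differs in diet and batch together, which cannot be told apart.

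De novo lipogenesis turns surplus carbohydrate into fatty acids. Citrate that leaves the mitochondria is split to acetyl-CoA, acetyl-CoA is carboxylated to malonyl-CoA, fatty acid synthase builds palmitate from both with reducing power from NADPH, and palmitate is then elongated and desaturated. In liver and fat the genes are switched on after carbohydrate feeding by the transcription factors SREBP-1c, made from Srebf1, and ChREBP, made from Mlxipl. Malonyl-CoA also blocks the carnitine palmitoyltransferase that lets fatty acids into mitochondria, so the pathway is tied to fatty acid oxidation.

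The members lie on 6 chromosomes of the mm10 build, with 4 on chromosome 11. Srebf1 was found at chr11:60199089-60220604, Acaca at chr11:84195438-84401651, Acly at chr11:100476352-100528000 and Fasn at chr11:120805958-120824547. Scd1 was at chr19:44394450-44407709, Elovl6 at chr3:129532386-129638493 and Me1 at chr9:86581363-86695914. Acacb was at chr5:114165518-114250758, Mlxipl at chr5:135106891-135138382 and Thrsp at chr7:97412957-97417510. All 10 are protein-coding genes. Acaca, Fasn, Scd1 and Thrsp overlapped no other annotated gene. Srebf1 overlapped Rai1 on the opposite strand, and Acacb overlapped a processed pseudogene on the opposite strand, and Me1, Elovl6 and Mlxipl each overlapped an antisense transcript, so without a stated use of strand in the counting their reads cannot be told apart from those of the partner. Acly, Me1, Elovl6 and Srebf1 also overlapped small or provisional genes on their own strand, whose reads cannot be separated in any case. Scd1 has close paralogs, Scd2 to Scd4, and reads with multiple alignments were counted, so part of its count may be shared with them.

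Promoter windows from RefSeq (GRCm38.p6, 250 bases before to 50 after a start) were found for 9 of the 10 members, in 13 windows. CCAAT, the box bound by NF-Y, a partner of SREBP at lipogenic promoters, was searched on both strands. It was in at least 1 window of 7 of the 9 members, and in 37.4% of all 32851 windows. The member count takes a match in any window of a gene and the share is per single window. The 2 figures therefore cannot be compared directly, here or for the other letters below. The windows of Acaca, Acacb and Thrsp are shown because WD levels of all 3 were called lower than in the batch 2 controls, and that of Fasn because it held the most CCAAT matches, 3, of which a pair overlap. They lie at chr11:84195188-84195487 on the + strand, chr5:114165268-114165567 on the + strand, chr7:97417501-97417800 on the - strand and chr11:120824498-120824797 on the - strand, are written 5' to 3', and carry CCAAT or its reverse complement in capitals, of which the Acaca window has none.
Acaca: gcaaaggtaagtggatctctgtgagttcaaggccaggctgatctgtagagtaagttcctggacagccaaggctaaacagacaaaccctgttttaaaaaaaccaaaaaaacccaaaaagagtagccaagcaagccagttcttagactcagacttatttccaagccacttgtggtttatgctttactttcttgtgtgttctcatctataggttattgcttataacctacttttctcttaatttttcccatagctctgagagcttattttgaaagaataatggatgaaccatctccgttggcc
Acacb: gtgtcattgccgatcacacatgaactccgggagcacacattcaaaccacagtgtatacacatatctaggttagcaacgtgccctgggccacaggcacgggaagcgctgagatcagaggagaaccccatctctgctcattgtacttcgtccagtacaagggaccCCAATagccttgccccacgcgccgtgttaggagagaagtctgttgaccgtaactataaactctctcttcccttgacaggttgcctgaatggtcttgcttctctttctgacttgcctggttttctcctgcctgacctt
Thrsp: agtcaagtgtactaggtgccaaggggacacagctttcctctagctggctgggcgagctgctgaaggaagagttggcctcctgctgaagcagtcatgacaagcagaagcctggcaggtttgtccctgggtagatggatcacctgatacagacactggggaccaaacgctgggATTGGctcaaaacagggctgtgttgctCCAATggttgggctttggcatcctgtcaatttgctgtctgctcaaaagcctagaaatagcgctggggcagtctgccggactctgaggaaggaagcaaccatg
Fasn: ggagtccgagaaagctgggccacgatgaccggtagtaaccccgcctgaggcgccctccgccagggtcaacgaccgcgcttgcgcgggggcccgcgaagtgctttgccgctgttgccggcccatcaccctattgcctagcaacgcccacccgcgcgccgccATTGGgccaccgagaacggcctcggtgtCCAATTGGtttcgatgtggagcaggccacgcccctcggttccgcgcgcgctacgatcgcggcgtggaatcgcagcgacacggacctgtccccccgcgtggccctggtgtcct
The letters TCACNCCAC, a form of the sterol regulatory element, were in 1 Mlxipl window and in 1.24% of all windows. The E-box CACGTG was in at least 1 window of 1 member, again Mlxipl, and in 7.15% of all windows. The GC box GGGCGG was in at least 1 window of 4 members and in 35.7% of all windows. Acaca and Elovl6 held none of these letters in their windows. Sequence outside the windows of the listed starts was not searched, so a lack of matches does not describe every promoter of a gene.

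Total counts ranged from 10278970 to 13712254 per library. A single library, batch 1 control replicate 1, went against its tissue label. Epididymis markers made up 15.12% of its counts and at most 0.0057% in the other 13 libraries, and adipocyte markers such as Adipoq and Fabp4 made up 0.385% of its counts against 2.14% to 6.07% elsewhere. Differences that use this library are therefore given with and without it. Batch 1 control replicate 4 had the fewest genes with a count, 7999, and its macrophage markers made up 0.146% of counts, against 0.0104% to 0.0546% in the other controls and 0.125% to 0.186% in WD. The summed adipocyte markers of the 5 WD libraries, 2.14% to 4.29%, were below those of the 5 batch 2 controls, 4.69% to 6.07%. In bulk tissue, fewer cells of a type and less RNA per cell cannot be told apart.

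**Figure D1:**
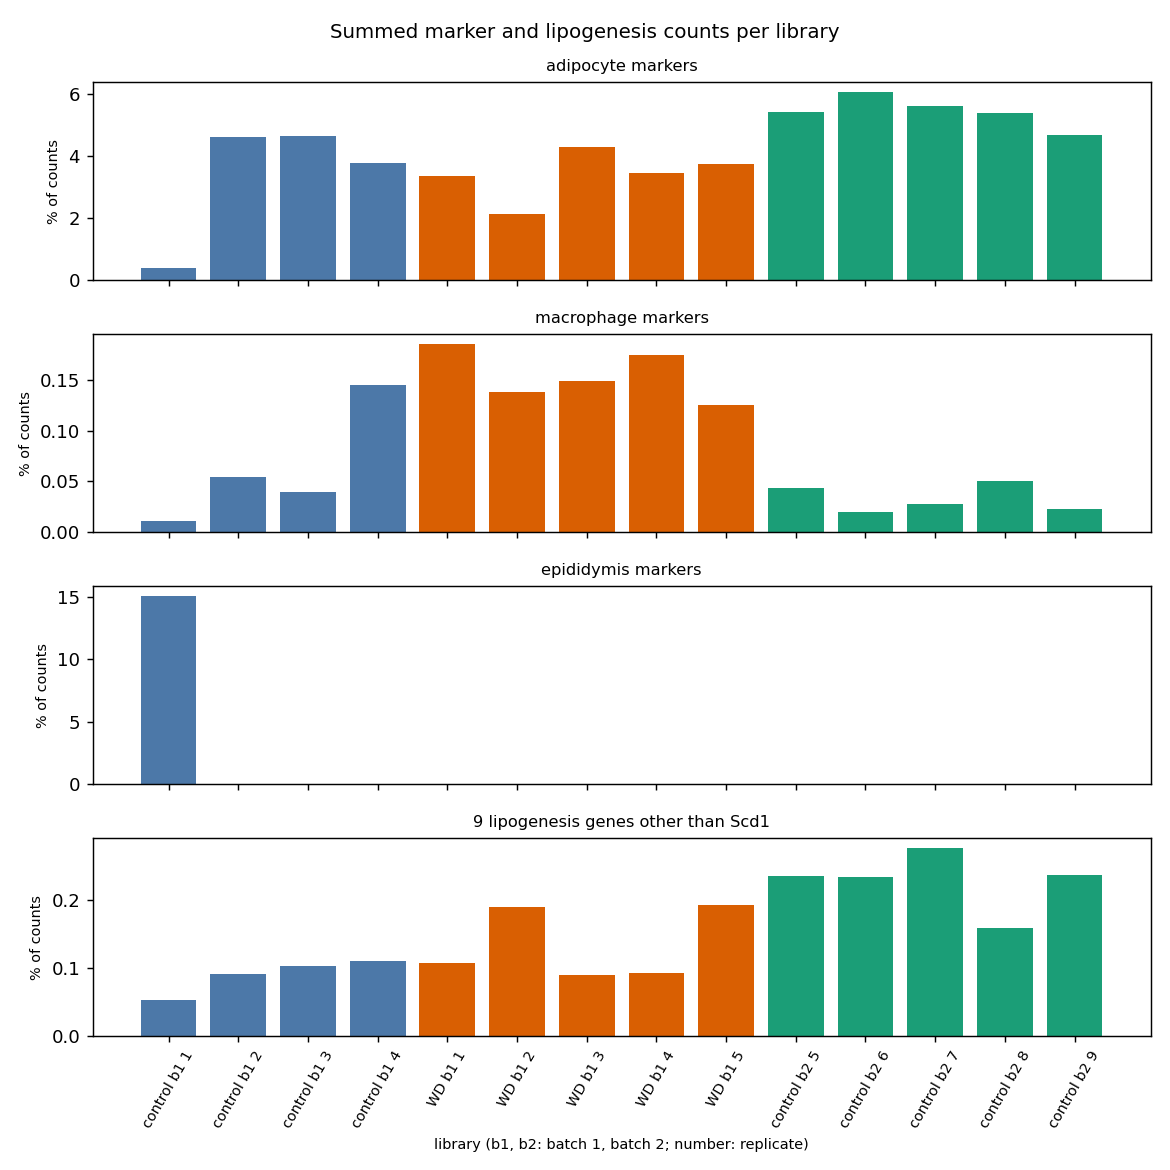
Summed counts of 8 adipocyte, 7 macrophage and 14 epididymis markers and of the 9 lipogenesis genes other than Scd1, in percent of all counts (y axes), in each of the 14 libraries (x axis). Batch 1 control replicate 1 has 15.12% epididymis markers and 0.385% adipocyte markers, and the lipogenesis genes other than Scd1 took 0.0889% to 0.193% of counts in WD, against 0.0916% to 0.110% in batch 1 controls 2 to 4 and 0.158% to 0.277% in the batch 2 controls.

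Against the controls of the same batch, no lipogenesis gene differed with the WD at an FDR of 0.05. In edgeR's quasi-likelihood test 0 of 10 members were called higher, with 0% of all 12157 genes, and 0 were called lower, also with 0% of all genes; DESeq2 and limma-voom called 0 members too. At an unadjusted p under 0.05 Fasn was the 1 member higher (3.35% of all genes were) and 0 members were lower (1.82%). Scd1 was the 1 member whose 5 WD libraries lay above all 4 controls (3.03% of all genes), and 0 members lay below them (0.847%). The median log2 fold change was -0.18 over the members and 0.03 over all genes.

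Without batch 1 control replicate 1 the FDR calls stayed at 0 members. Elovl6, Scd1 and Thrsp then had an unadjusted p under 0.05 with higher levels in WD (4.78% of all 12603 genes) and Acacb with a lower level (1.75%). Elovl6 and Scd1 lay above every remaining control (4.9% of all genes) and Acacb lay below every one (2.18%). The median over the members moved to 0.35, against 0.13 over all genes. The estimates of Acly and Elovl6 changed sign, since that library held the highest level of both. Of 8 adipocyte markers, 7 had a lower median in WD without that library, and 1 did not overlap. With that library 5 had a lower and 3 a higher median in WD.

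Against the batch 2 controls, 4 members were called. Scd1 was higher in WD, where 3.93% of all 12070 genes were called higher, and Acaca, Acacb and Thrsp were lower, where 2.48% were called lower. The WD libraries of these 3 genes lay below all 5 controls, as did those of 3.8% of all genes. DESeq2 and limma-voom called the same number in each direction. Adipocyte markers moved with this comparison: 8 of 8 had a lower median in WD and 6 of 8 did not overlap. After scaling to the adipocyte markers 2 members were called, Scd1 and Elovl6, both higher, and the calls of Acaca, Acacb and Thrsp were lost; that scaling moved the median of all genes from -0.0034 to 0.72 and the calls over all genes from 474 higher and 299 lower to 2482 higher and 57 lower.

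With all 9 controls together, 0 members were called higher (0.435% of all 12653 genes) and 0 lower (0.0948%). Scd1 had an unadjusted p under 0.05 on the higher side (4.48% of all genes), and Acacb and Acaca on the lower side (3.25%). DESeq2 called 1 member, Scd1, beside 1.18% of all genes called higher, and limma-voom called 0 members and 1.63% of all genes higher. Without batch 1 control replicate 1, Acacb was called lower, as were 0.529% of all 12468 genes, and lay below all 8 controls, as did 0.658%.

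The batch 2 and batch 1 controls received the same diet and give the size of the differences between batches. In this comparison 0 members were called higher (0% of all 12106 genes) and 0 lower (0%) by edgeR, while DESeq2 called 1, Thrsp, higher, beside 0.421% of all genes. At an unadjusted p under 0.05 Me1, Acaca, Fasn and Thrsp were higher in batch 2 (3.85% of all genes) and Elovl6 was lower (3.54%), a difference that went from -1.61 to 0.12 on the log2 scale without replicate 1. Me1 and Thrsp did not overlap between the batches (4.13%). Without batch 1 control replicate 1, Thrsp was called higher, as the 1 gene called of 12495 (0.008%), and Acly, Me1 and Thrsp lay above every batch 1 control (6.18%).

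**Figure D2:**
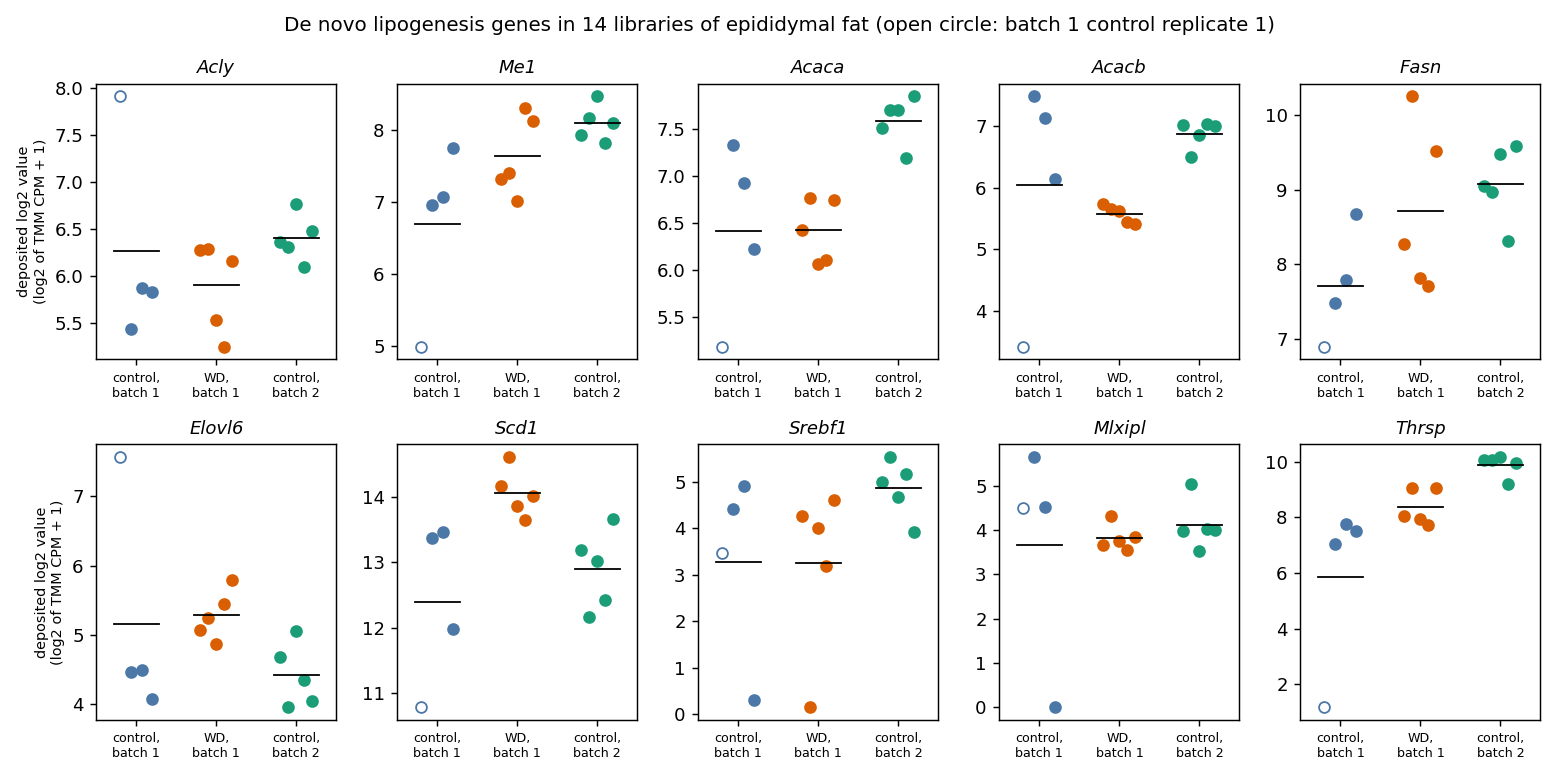
Deposited log2 values (log2 of CPM with 1 added, y axes) of the 10 members in each library, by group (x axis); points are libraries, lines are group means and the open circle is batch 1 control replicate 1. The 5 WD points of Scd1 lie above all batch 1 controls, those of Acaca, Acacb and Thrsp lie below all batch 2 controls, and the open circle lies apart for Thrsp and Elovl6.

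**Figure D3:**
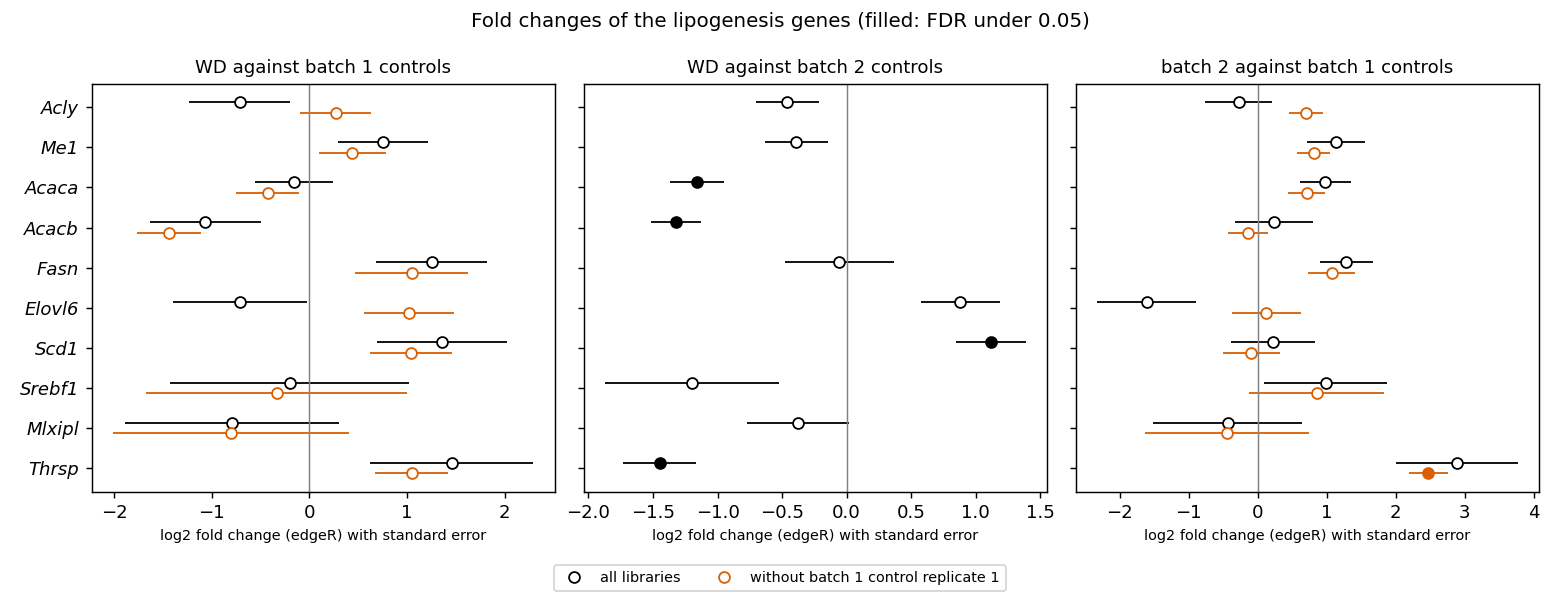
Log2 fold changes from edgeR with standard errors (x axes) of the 10 members (y axis) for WD against each control group and for the batch 2 against the batch 1 controls, with all libraries in black and without batch 1 control replicate 1 in orange; filled points have an FDR under 0.05. Acaca, Acacb, Scd1 and Thrsp are filled against the batch 2 controls, no point is filled for WD against the batch 1 controls, and Thrsp is filled between the control batches without replicate 1.

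Malonyl-CoA is made by 2 acetyl-CoA carboxylases, and both had their lowest level in batch 1 control replicate 1. Acacb encodes the carboxylase at the mitochondrial outer membrane, whose malonyl-CoA restrains fatty acid entry. Its counts were 93, 2113, 1670 and 931 in batch 1 controls 1 to 4, 736, 472, 661, 534 and 498 in WD, and 1801, 923, 1512, 1687 and 1262 in batch 2 controls 5 to 9. The WD libraries were close together and lay below every control other than replicate 1. The mean CPM was 47.1 ± 4.85 in WD (SD, n = 5), 117 ± 17.2 in the batch 2 controls (n = 5) and 128 ± 55.3 in batch 1 controls 2 to 4 (n = 3). With replicate 1 the batch 1 control mean was 98.3 ± 74.1 CPM (n = 4). Acacb fell by 1.32 on the log2 scale against the batch 2 controls (SE 0.19, edgeR FDR 0.000424). Against all controls but replicate 1 it fell by 1.36 (SE 0.23, edgeR FDR 0.00433, lower in 5 of 5 WD libraries). Within batch 1 the log2 difference was -1.07 (SE 0.57, edgeR FDR 0.9999) with replicate 1 and -1.44 (SE 0.33, edgeR FDR 0.366) without it. Between the control batches the log2 difference was 0.24 with replicate 1 and -0.13 without it. Scaled to the adipocyte markers, the log2 difference from the batch 2 controls was -0.61 (edgeR FDR 0.0866), beside an all-gene median of 0.72.

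Acaca encodes the cytosolic carboxylase that feeds fatty acid synthase. Its counts were 339, 1894, 1447 and 985 in batch 1 controls 1 to 4, 1198, 1028, 901, 851 and 1266 in WD, and 2538, 2137, 2736, 1884 and 2274 in batch 2 controls 5 to 9. WD and the batch 1 controls overlapped, and both lay mostly below the batch 2 controls. The mean CPM was 86.9 ± 20.6 in WD (SD, n = 5), 96.7 ± 53.5 in the batch 1 controls (n = 4), 117 ± 43.4 in those without replicate 1 (n = 3) and 192 ± 31.6 in the batch 2 controls (n = 5). Acaca fell by 1.16 against the batch 2 controls on the log2 scale (SE 0.21, edgeR FDR 0.00241). Within batch 1 the log2 difference was -0.16 (SE 0.40) with replicate 1 and -0.43 (SE 0.32) without it, neither past the FDR threshold. The control batches themselves differed by 0.98 on the log2 scale (SE 0.37, edgeR FDR 0.572), with batch 2 higher, and by 0.71 (SE 0.27) without replicate 1.

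Fasn encodes fatty acid synthase, the enzyme that builds palmitate. Its counts were 1132, 2111, 2638 and 5442 in batch 1 controls 1 to 4, 4355, 11676, 3080, 2617 and 8763 in WD, and 7415, 5200, 9455, 4116 and 7615 in batch 2 controls 5 to 9. WD replicates 2 and 5 were high and the other 3 WD libraries were in the range of the batch 1 controls. The mean CPM was 545 ± 449 in WD (SD, n = 5), 228 ± 118 in the batch 1 controls (n = 4), 264 ± 116 in those without replicate 1 (n = 3) and 560 ± 179 in the batch 2 controls (n = 5). The log2 difference within batch 1 was 1.25 (SE 0.57, edgeR FDR 0.950), and 1.05 (SE 0.58) without replicate 1. Against the batch 2 controls it was -0.06 (SE 0.42, edgeR FDR 0.978). The batch 2 controls had a log2 level 1.29 above the batch 1 controls (SE 0.38, edgeR FDR 0.452), and 1.08 (SE 0.34) without replicate 1.

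Scd1 and Elovl6 act after palmitate. Scd1 encodes stearoyl-CoA desaturase, which places a double bond in palmitate and stearate. Its counts were 16879, 125260, 135593 and 54118 in batch 1 controls 1 to 4, 260003, 238444, 203688, 160756 and 197812 in WD, and 130921, 47560, 109530, 71358 and 128945 in batch 2 controls 5 to 9. All WD libraries had more Scd1 counts than any control. On the CPM scale, 4 of 5 batch 2 controls lay below every WD library and the remaining library, replicate 9, at 12870 CPM, lay just above the lowest WD library, replicate 4, at 12720 CPM. The mean CPM was 17640 ± 4891 in WD (SD, n = 5), 6875 ± 4711 in the batch 1 controls (n = 4), 8560 ± 4034 in those without replicate 1 (n = 3) and 8060 ± 3310 in the batch 2 controls (n = 5). Scd1 rose against the batch 2 controls, by 1.12 on the log2 scale (SE 0.27, edgeR FDR 0.0189), and by 1.12 (FDR 0.0521) without batch 2 control replicate 7 and 1.00 (FDR 0.0536) without replicate 8. Within batch 1 the log2 difference was 1.36 (SE 0.67, edgeR FDR 0.9999), and 1.04 (SE 0.42, edgeR FDR 0.725) without replicate 1. The control batches differed by 0.22 (SE 0.61) on the log2 scale with batch 2 higher, and by -0.090 (SE 0.41) without replicate 1.

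Elovl6 encodes the elongase that takes palmitate to stearate. Its counts were 1816, 249, 259 and 211 in batch 1 controls 1 to 4, 463, 350, 388, 534 and 647 in WD, and 343, 150, 428, 251 and 153 in batch 2 controls 5 to 9. Apart from the 1816 counts in replicate 1, the WD libraries lay above the batch 1 controls, and on the CPM scale 4 of 5 batch 2 controls lay below every WD library. The mean CPM was 39.0 ± 9.76 in WD (SD, n = 5), 21 ± 7.30 in the batch 2 controls (n = 5) and 19.2 ± 3.41 in batch 1 controls 2 to 4 (n = 3). With replicate 1 the batch 1 control mean was 63.45 ± 88.5 CPM (n = 4). The log2 difference within batch 1 was -0.71 (SE 0.69) with replicate 1 and 1.02 (SE 0.46, edgeR FDR 0.765) without it. Against the batch 2 controls it was 0.88 (SE 0.30, edgeR FDR 0.110).

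Acly and Me1 supply the pathway. Acly encodes ATP-citrate lyase, the source of cytosolic acetyl-CoA, and its counts were 2308, 502, 692 and 745 in batch 1 controls 1 to 4, 464 to 1084 in WD and 812 to 1429 in the batch 2 controls. Replicate 1 had the highest level of all 14 libraries, 249 CPM against 36.7 to 107 CPM in the other 13. The log2 difference of WD within batch 1 was -0.72 (SE 0.52) with that library and 0.27 (SE 0.36) without it, and against the batch 2 controls it was -0.46 (SE 0.24, edgeR FDR 0.363). Me1 encodes malic enzyme, a source of NADPH, and its counts were 297, 1464, 1609 and 2880 in the batch 1 controls, 1607 to 3937 in WD and 2704 to 4682 in the batch 2 controls. Its log2 difference was 0.76 (SE 0.46) within batch 1, 0.44 (SE 0.34) without replicate 1, and -0.39 (SE 0.24) against the batch 2 controls. None of these passed the FDR threshold.

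Thrsp encodes Spot 14, a thyroid hormone responsive protein that promotes fatty acid synthesis. Its counts were 12, 1565, 2568 and 2405 in batch 1 controls 1 to 4, 3737, 5027, 3383, 2601 and 6358 in WD, and 15001, 11115, 15235, 7570 and 9914 in batch 2 controls 5 to 9. The WD mean lay between those of the control groups, and every WD library was below every batch 2 control. On the CPM scale 3 of 4 batch 1 controls, replicate 1 among them, were below every WD library. The remaining control, replicate 3 at 214 CPM, lay above WD replicate 4 at 206 CPM, so WD and the batch 1 controls overlapped. The mean CPM was 358 ± 163 in WD (SD, n = 5), 966 ± 223 in the batch 2 controls (n = 5) and 173 ± 41.8 in batch 1 controls 2 to 4 (n = 3). With replicate 1 the batch 1 control mean was 130 ± 92.4 CPM (n = 4). Thrsp fell by 1.45 on the log2 scale against the batch 2 controls (SE 0.28, edgeR FDR 0.00432). Within batch 1 the log2 difference had the other sign, 1.46 (SE 0.84, edgeR FDR 0.9999), and 1.05 (SE 0.37, edgeR FDR 0.661) without replicate 1. The batch 2 controls had a log2 level 2.89 above the batch 1 controls (SE 0.89, edgeR FDR 0.461) and, without replicate 1, 2.48 above them (SE 0.28, edgeR FDR 0.0346). The direction for WD thus depended on which controls were used.

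The transcription factors were near or under the floor of 3 counts in single libraries. Srebf1 had 97, 241, 347 and 3 counts in batch 1 controls 1 to 4, 258, 1, 208, 101 and 281 in WD, and 435, 471, 325, 453 and 141 in batch 2 controls 5 to 9. Batch 1 control replicate 4 and WD replicate 2 were at or under that floor, with total counts in the range of the others. That control library also had the fewest genes with a count, 7999. WD replicate 2 had the highest Fasn and Scd1 levels of all 14 libraries. The log2 difference of WD was -0.20 (SE 1.22) within batch 1, -0.33 (SE 1.34) without replicate 1 and -1.20 (SE 0.67, edgeR FDR 0.405) against the batch 2 controls. Mlxipl had 208, 583, 264 and 0 counts in the batch 1 controls, 134 to 179 in WD and 140 to 331 in the batch 2 controls. A count of 0 in batch 1 control replicate 4 allows up to 3 counts. Its log2 difference was -0.79 (SE 1.10) within batch 1, -0.81 (SE 1.21) without replicate 1 and -0.38 (SE 0.39) against the batch 2 controls. Within batch 1 but without control replicate 4, it was -1.225 (SE 0.49, edgeR FDR 0.399). None of these passed the FDR threshold, and the power to detect differences of these sizes was not tested. The counts do not separate the SREBP-1a and SREBP-1c transcripts of Srebf1.

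Ratios of 2 members within a library do not depend on the scaling between libraries and are given as a description. Scd1 had 31.1 to 69.6 counts per Thrsp count in WD, 22.5 to 80.0 in batch 1 controls 2 to 4 and 4.28 to 13.0 in the batch 2 controls, so the batch 1 libraries of both diets lay together, above batch 2; replicate 1 had 1407. Scd1 had 20.4 to 66.1 counts per Fasn count in WD, 9.95 to 59.3 in the batch 1 controls and 9.15 to 17.7 in the batch 2 controls. Here all WD libraries lay above all batch 2 controls but overlapped the batch 1 controls. Acacb had 0.393 to 0.734 counts per Acaca count in WD, below the 0.945 to 1.15 of batch 1 controls 2 to 4 and above the 0.274 of replicate 1, and overlapped the 0.432 to 0.895 of the batch 2 controls.

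**Figure D4:**
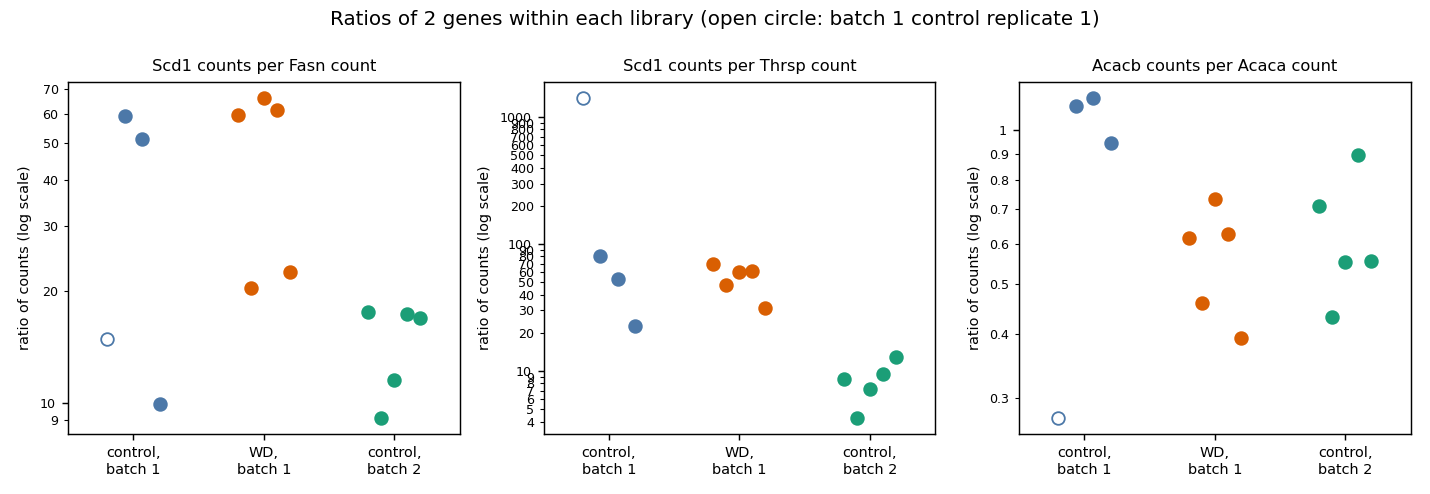
Counts of a gene divided by those of another gene in the same library (y axes, log scale), by group (x axis); points are libraries and the open circle is batch 1 control replicate 1. The Scd1 to Thrsp ratio is 4.28 to 13.0 in the batch 2 controls and at least 22.5 in every batch 1 library, and the Acacb to Acaca ratio is 0.393 to 0.734 in WD, 0.945 to 1.15 in batch 1 controls 2 to 4 and 0.274 in replicate 1.

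A further 37 genes of the pathway were followed in 4 roles. Within batch 1, 33 of the 37 could be tested and 0 were called by edgeR, with or without replicate 1. At an unadjusted p under 0.05, 2 were higher (3.35% of all genes were), and 3 were higher without replicate 1 (4.78%). DESeq2 called 1, Cpt1b, the muscle-type carnitine palmitoyltransferase, where it called 0.773% of all genes higher. Cpt1b had 0 counts in all 4 batch 1 controls, 0 to 262 in WD and 0 to 13 in the batch 2 controls. The median log2 fold change was 0.28 over the 33 genes and 0.03 over all genes, and without replicate 1 it was 0.17 and 0.13.

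Of 8 genes that supply carbon and NADPH, 7 had a positive estimate, and 6 without replicate 1. Pgd, an enzyme of the pentose phosphate pathway, was at 0.92 (SE 0.37, edgeR FDR 0.835), and at 0.65 (SE 0.27) without replicate 1. Pcx, pyruvate carboxylase, was at 0.82 (SE 0.70) with that library and 0.44 (SE 0.50) without it. The lowest was Acss2, a cytosolic acetyl-CoA synthetase, at -0.51 (SE 0.90), and at -0.91 (SE 0.73) without it.

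Of 9 tested genes of elongation and desaturation, 6 had a positive estimate, with or without replicate 1. Tecr, the reductase that ends each elongation cycle, was at 0.97 (SE 0.62), and at 1.96 (SE 0.52, edgeR FDR 0.456) without replicate 1. Scd2, a paralog of Scd1, was at 0.54 (SE 0.60) and at 1.10 (SE 0.61) without it. The desaturase Fads1 was at -0.39 (SE 0.45) and -0.16 (SE 0.48), and Scd4 at -0.33 (SE 1.81) and -0.39 (SE 2.13), with and without that library.

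Of 11 tested regulators and cofactors, 6 had a positive estimate, and 8 without replicate 1. Pnpla3 was at 1.90 (SE 1.62), and at 1.49 (SE 1.51) without that library, and Mlx, the partner of ChREBP, at 1.53 (SE 1.67) and 1.12 (SE 1.59). The lowest estimates rested on replicate 1: Mid1ip1, a paralog of Thrsp, went from -1.53 (SE 1.13) to -0.25 (SE 1.18) without it, and Scap, the escort of SREBP, from -0.19 (SE 0.79) to 0.059 (SE 0.89). Of the 5 genes of malonyl-CoA turnover, Mlycd, malonyl-CoA decarboxylase, was at 0.14 (SE 0.38), and at 0.046 (SE 0.39) without it. Prkaa1 and Prkaa2, the catalytic subunits of AMP-activated kinase, which inhibits the carboxylases, were at -0.57 (SE 0.65) and -0.54 (SE 1.57) with replicate 1 and at -0.92 (SE 0.54) and -0.95 (SE 1.39) without it.

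Of 33 pathway genes tested against the batch 2 controls, 3 were called by edgeR, 2 higher and 1 lower, beside 3.93% higher and 2.48% lower of all genes. Insig2, which holds SREBP back in the endoplasmic reticulum, fell by 1.32 on the log2 scale (SE 0.23, FDR 0.00193) and was called in each of 10 fits that left out 1 library. Scaled to the adipocyte markers it was at -0.63 (SE 0.26, edgeR FDR 0.0935), so that this call was lost. Scd2 rose by 1.36 (SE 0.35, edgeR FDR 0.0259) and was called in 4 of the 10 fits, with an FDR of up to 0.0745. Cpt1a, a carnitine palmitoyltransferase that malonyl-CoA inhibits, rose by 0.80 (SE 0.23, edgeR FDR 0.0472) and was called in 2 of the 10, with an FDR of up to 0.120. After scaling to the adipocyte markers, 9 of the 33 pathway genes were called higher and 0 lower, beside 20.6% and 0.472% of all genes. The median log2 fold change was then 0.57 over the pathway genes and 0.72 over all genes. Within batch 1 Insig2 was at -0.15 (SE 0.53), and at -0.41 (SE 0.49) without replicate 1, and Cpt1a was at -0.19 (SE 0.37), and at 0.25 (SE 0.31) without it. With all 9 controls, 0 of 34 tested pathway genes were called by edgeR or DESeq2. At an unadjusted p under 0.05, 2 were higher (4.48% of all genes) and 2 were lower (3.25%). Without replicate 1, 0 of 33 were called. At that p 4 were higher and 3 were lower, as were 753 and 509 of all 12468 genes.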

How the data were processed

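The deposited table holds read counts per gene and log2 values for 14 libraries. Per the labels and the study's methods, single-end reads were mapped by the authors with Bowtie2. They counted each gene's alignments, unique or multiple, with Bedtools, and the deposited counts are raw. The use of strand is not given in the sources used here. The deposited log2 values are the logarithms of the authors' TMM-scaled CPM from edgeR plus 1. The submitters' processing notes name mm10, FastQC and these tools. Table positions overlapped those of GENCODE release 21 of the mouse for 22097 of 22241 matched symbols (99.35%). Of the 23282 genes, 5794 had no count.

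Counts were tested with edgeR 4.0.16 (quasi-likelihood, TMM, its default filter on low counts, Benjamini-Hochberg FDR under 0.05 over all tested genes) in R 4.3.3, and with limma 3.58.1 and DESeq2 1.42.0 as alternatives. The standard error is the size of the log2 fold change divided by the square root of F. CPM uses TMM factors over all libraries. Recomputed log2 values differed from the deposited ones by at most 0.0507. The scripts were tested on simulated data. Promoter matches and ratios were computed with Python 3.11.15, numpy 2.4.6 and pandas 2.3.3, and plots with matplotlib 3.10.9. Groups follow the labelled diet and batch, and no libraries were duplicates. The labels do not say whether replicates were separate extractions, so p-values measure the spread between libraries. A floor of 3 counts was used for a gene at 0, and covers counting error only.

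All 10 members are reported, and from the pathway lists the 2 genes with the largest changes in each direction in batch 1 are named for each role; Insig2 and Cpt1a are named as genes called against batch 2, chosen after their values were seen. The members and lists were chosen with earlier results of these data known.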

Additional observations from a re-analysis of the deposited data

Results flagged for a closer look

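In 30 groups of 4 or 5 libraries, the deposited log2 values of the members were searched for a highest or lowest library far from the others by Dixon's ratio, and 3 groups had such a library; chance gives about 1 in 20 groups, or 1.5 of 30. Elovl6 in batch 1 control replicate 1 was at 7.57, against 4.07 to 4.50 in the other 3 controls of that batch. Thrsp in the same library was at 1.17, against 7.05 to 7.75 in the others. This is the library with 15.12% epididymis markers, and the part of that RNA in these values was not tested. Thrsp in batch 2 control replicate 8 was at 9.18, against 9.96 to 10.17 in the other 4, and that library also had the lowest Acaca and Fasn counts of its group.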

How the results depend on the processing

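Of the members' log2 differences, 391 of 420 kept their direction and their side of the FDR threshold when 1 library was left out, and 205 of 247 under the other alternatives. Within batch 1, against all controls and between the control batches, 0 members were called with all libraries. Keeping the side of the threshold there means only that a gene stayed uncalled. The count of members called within batch 1 went from 0 to 1, Acacb, when batch 1 control replicates 1 and 4 were both left out, where 0.228% of all genes were called lower. For all controls it was 0 as reported, 1 with DESeq2 (Scd1), 3 without replicates 1 and 4 (Acaca, Acacb, Scd1, beside 3.1% of all genes called higher and 1.88% lower), 1 with batch as a term and replicate 1 left out (Acacb, beside 0.0722% called lower, chosen after seeing the data), and 0 to 1 when leaving out 1 library, with the 1, Acacb, without batch 1 control replicate 1. Against the batch 2 controls it went from 4 to 2 after scaling to the adipocyte markers. Between the control batches it was 1, Thrsp, with DESeq2, beside 0.421% of all genes called higher. It was also 1, Thrsp, without replicates 1 and 4 (chosen after seeing the data), beside 0.0823% of all genes called higher. Leaving out 1 library there gave 0 to 1, with the 1 without replicate 1. Pathway calls went from 0 to 1 with DESeq2 in batch 1 (Cpt1b) and from 0 to 1 against all controls without replicates 1 and 4 (Insig2). With the batch 2 controls DESeq2 called 5 pathway genes, 3 higher and 2 lower, beside 5.82% and 3.65% of all genes. There edgeR called 3, 2 higher and 1 lower, beside 3.93% and 2.48%. The fits of these genes with 1 library left out or scaled to the adipocyte markers were chosen after seeing the data. Over all genes DESeq2 called 94 higher and 20 lower within batch 1 and 51 higher and 60 lower between the control batches, where edgeR called 0, and against all controls edgeR called 55 higher and 12 lower, DESeq2 149 and 87, and limma-voom 206 and 17. The cause of these changes was not tested. Srebf1 and Mlxipl were at or under 3 counts in 2 and 1 libraries, whose totals were in the range of the others. Batch 1 control replicate 4, where this held for both genes, had the fewest genes with a count, 7999. The cause was not tested.

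The following log2 differences had the opposite sign to the value from all libraries, and no value of that sign passed the FDR threshold. Within batch 1, limma-voom gave 0.34 for Elovl6, 0.41 for Srebf1 and 1.53 for Mlxipl, and leaving out replicates 1 and 4 gave 0.31 for Acly and 0.88 for Elovl6. Leaving out 1 library there gave -0.99 to 0.27 for Acly, -0.43 to 0.16 for Acaca, -1.05 to 1.02 for Elovl6 and -0.63 to 0.31 for Srebf1. Against all controls, batch as a term gave 1.43 for Thrsp, and with replicate 1 also left out it gave 1.05 for Thrsp, 0.27 for Acly and 1.02 for Elovl6. In that comparison Elovl6 was at 0.87 with DESeq2, 0.63 with limma-voom and 0.88 without replicates 1 and 4, Me1 was at -0.15 without replicates 1 and 4, and limma-voom gave 0.53 for Mlxipl and 0.32 for Thrsp. Leaving out 1 library gave -0.19 to 0.14 for Me1, -0.17 to 0.59 for Fasn and -0.17 to 0.94 for Elovl6. Against the batch 2 controls, scaling to the adipocyte markers gave 0.30 for Acly, 0.31 for Me1, 0.78 for Fasn and 0.41 for Mlxipl, beside an all-gene median of 0.72. Leaving out 1 library in that comparison gave -0.62 to 0.15 for Fasn. Between the control batches, scaling to the adipocyte markers gave -0.13 for Acaca, -0.34 for Acacb, -0.10 for Fasn, -0.66 for Scd1 and -0.54 for Srebf1. Here the scaling moved the median of all genes from -0.0024 to -1.79, further down than these values. That fit kept batch 1 control replicate 1, with adipocyte markers at 0.385% of counts. There limma-voom gave 0.18 for Acly and 1.81 for Mlxipl, and leaving out replicates 1 and 4 gave 0.76 for Acly, -0.43 for Acacb and -0.43 for Scd1. Leaving out 1 library gave -0.49 to 0.71 for Acly, -0.13 to 0.69 for Acacb, -1.88 to 0.12 for Elovl6, -0.090 to 0.57 for Scd1 and -0.83 to 0.26 for Mlxipl.

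Same-numbered control and WD libraries of batch 1 had deviations that correlated across genes with r from -0.04 to 0.09. The labels do not say whether the numbers pair the mice, and correlations of this size in 4 pairs cannot decide it. With the replicate block, which uses 4 libraries of each diet, 0 members were called and Elovl6 was at 0.13.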
